A study of Homo sapiens with 4 samples.

Results

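The human genes ZNF500 to ZNF899 are a numbered run of zinc finger genes, and their mRNAs were measured in heavy and light polysomes. Members were the table rows whose symbol is ZNF followed by a number of 3 digits that begins with 5, 6, 7 or 8, whatever their values. They made up 242 of the 26364 gene symbols in the deposited count table. A further 234 rows carry the name ZNF with another number and are used for comparison. RNA came from HCT116, an established human colorectal carcinoma line, and cytoplasmic extracts were separated on sucrose gradients into polysome fractions. There were 4 groups of 1 library each. Cells labelled Dicer1 knockout and wild type cells each gave a library of heavy polysomes, on which an mRNA carries at least 10 ribosomes, and a library of light polysomes, with at most 9. The labels name no treatment, and do not say whether the labelled knockout is 1 clone or which stretch of the gene was altered.

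Most human ZNF genes encode C2H2 zinc finger proteins, in which each finger is a short loop held by a zinc ion between a pair of cysteines and a pair of histidines, and fingers in a row read a stretch of DNA. Many of them begin with a KRAB domain, which recruits the co-repressor TRIM28 and, through it, histone methylation that silences DNA such as transposable elements. Long clusters on chromosome 19 arose by repeated gene duplication, so that neighbours share sequence. DICER1 cuts microRNA precursors, and microRNAs lower the stability and translation of mRNAs with matching sites. Finger repeats give some ZNF mRNAs many copies of the same seed match in their coding sequence.

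Library totals ran from 17457116 to 20933675 counts, and ribosomal RNA (the row RNA45S5) took 4.32% and 2.61% of the counts in labelled knockout and wild type heavy libraries and 5.97% and 3.59% in the light ones. Of 10 epithelial marker genes of HCT116, 7 had 50 or more counts in each library, and VIL1 was at 0 throughout. Of 14 marker genes of blood, vessel, stromal and nerve cells, ACTA2 and COL1A1 reached that level, and PTPRC, CD3E and DCN were at 0. The summed level of those 14 ran from 26.9 to 63.5 CPM (counts scaled to equal library size) across the libraries. Its part in the results was not tested. DICER1 mRNA itself had 925 and 500 counts in the labelled knockout and wild type heavy libraries, and 889 and 547 in the light ones. This goes against a loss of the transcript, so the name "labelled knockout" is kept, and every direction between genotypes rests on the label.

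The ZNF mRNAs were rare. Together the 242 members held 0.231% and 0.213% of all counts in the labelled knockout and wild type heavy libraries, and 0.253% and 0.292% in the light ones. No count was found in any library for 52 members, and 190 had at least 1 count somewhere. A minimum of 10 counts in each library was met by 156 members, 20 by 147, 50 by 122 and 100 by 85. The filter for the test of heavy against light passed 161 members, of which 39 had under 50 counts in some library. A count of 0 allows a level of up to 0.136 to 0.166 CPM, taking 3 counts as its limit. Intervals and floors cover counting error only, since the labels name no molecular identifiers and reads of PCR copies are not independent.

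Annotation set the members into groups. A coding sequence was found in GENCODE for 237 members, and 149 of these translate to a protein with a KRAB pattern. The 149 hold a median of 11 C2H2 fingers and the 88 others a median of 8. Of the 241 members with a known position, 127 lie on chromosome 19, 103 of them with a KRAB pattern. Of the 149 KRAB members 89 passed the filter and 39 had no count at all, against 71 and 11 of the 88 without the pattern. Among members with 50 or more counts in each library, the median level was 7.59 CPM for the 57 with KRAB and 20.5 CPM for the 64 without.

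Levels between genes were compared per length of the annotated transcript, as CPM per kilobase averaged over the 4 libraries. ZNF593, whose yeast counterpart Bud20 helps export the large ribosomal subunit, was the highest at 55.5, followed by ZNF580 at 39.1 and ZNF581 at 32.2. Next came ZNF503, a transcriptional repressor of the NET family, at 28.9, then ZNF664 at 27.2 and ZNF787 at 25.5. The spread between libraries was wide enough to reorder them. ZNF593 had 30.1 and 36.7 CPM per kilobase in the labelled knockout and wild type heavy libraries, and 72.6 and 82.6 in the light ones, whereas ZNF503 had 51.3 and 30.2 in heavy and 20.7 and 13.2 in light. In the labelled knockout heavy library ZNF503 therefore stood above ZNF593. Exons of ZNF593 are overlapped in full by the antisense gene ZNF593OS. Those of ZNF580 are overlapped over 13.2% on the same strand, with ZNF581 as the largest overlap. Reads there cannot be assigned with certainty, so these levels are uncertain.

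Heavy against light polysomes asks how many ribosomes the mRNAs carry. A smaller share of the members than of all genes was called toward heavy polysomes, and more members were called light than heavy. Of 161 members tested, 25 lay toward heavy polysomes past the threshold (edgeR's quasi-likelihood test, adjusted p under 0.05). That is 15.5% of the members, against 30.0% of all 13574 genes in the fit. The 2 gradients stood in for replicates, though they are also the 2 genotypes. A further 45 members were called toward light polysomes, 28.0% of them, against 29.3% of all genes. For the remaining 91 the test made no call. The median log2 ratio of heavy to light was -0.14 over the members and -0.07 over all genes. In single gradients the members' median was -0.06 in the labelled knockout and -0.31 in wild type. Other ZNF genes had 29 calls toward heavy and 27 toward light among 176 tested, with a median of -0.01. Under scaling by library totals alone the members' calls were 14 toward heavy and 60 toward light, and the median of all genes moved to -0.30. In each of the 8 settings run, the share of calls that were toward heavy was lower for the members than for all genes. The gap between the members and other genes was not itself tested.

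The heavy to light ratio of the members went up with coding length, as it did over all genes. Within each length class the median of the members lay below that of genes outside the ZNF series, and so did that of the other ZNF genes. From the shortest class to the longest, the other ZNF genes had medians of -1.07, -0.10, -0.09, 0.01 and 0.74, below the members in the first and the fourth. For coding sequences of over 1000 and up to 1500 nucleotides the median log2 ratio was -0.55 over 44 members and 0.02 over 2773 other genes. For 1500 to 2000 nucleotides it was -0.14 over 55 members and 0.43 over 1825 other genes. For 2000 to 3000 nucleotides it was 0.18 over 31 members and 0.60 over 1967 other genes, and above 3000 it was 0.59 over 15 members and 0.84 over 1787 other genes. In the class up to 1000 nucleotides the values were -1.01 over 15 members and -0.74 over 3850 other genes, and 12 of these 15 members were called toward light, or 80.0%. In the same class 54.2% of the genes outside the ZNF series and 66.7% of the other ZNF genes were called light. Spearman's correlation between coding length and the ratio was 0.45 across the 160 tested members with a coding length and 0.55 across 12538 genes. These are descriptions across genes, which share the same 4 libraries. The number of fingers gave 0.07 across the same 160 members.

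**Figure D1:**
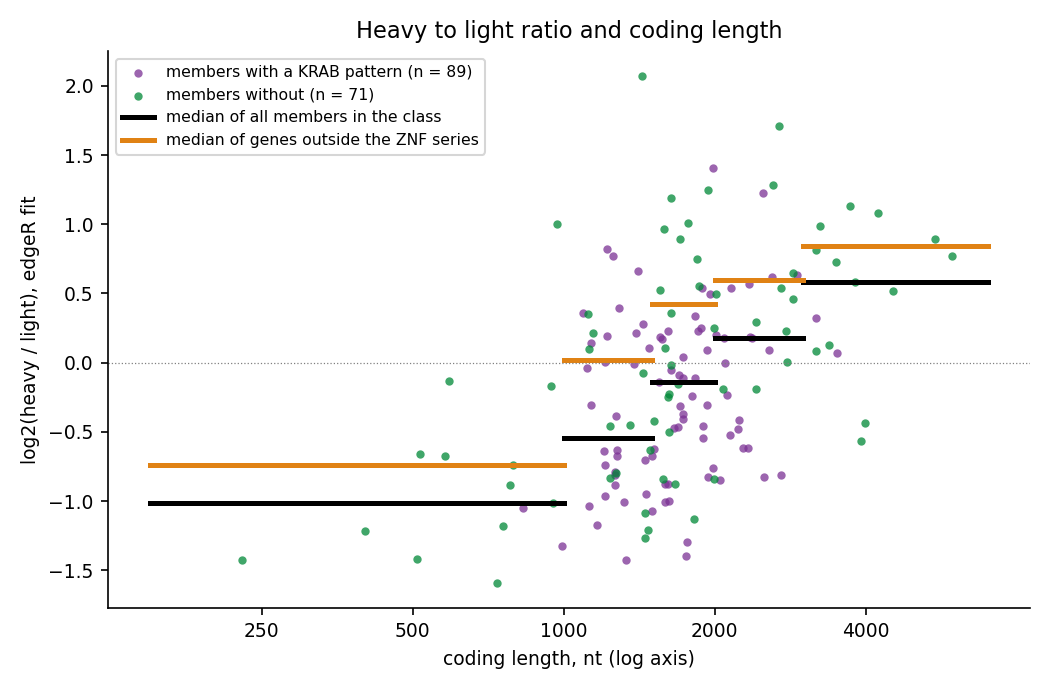
Each point is a tested member, with its annotated coding length in nucleotides on a log axis and the fitted log2 ratio of heavy to light polysomes, coloured by the KRAB pattern; lines give class medians for the members and for genes outside the ZNF series. In the class from 1000 to 1500 nucleotides the members' line lies at -0.55 and that of the other genes at 0.02, and the members' line is the lower one in all 5 classes.

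Few of the KRAB members were called toward heavy polysomes. Among 89 in the fit, 6 calls were toward heavy and 24 toward light, with a median log2 ratio of -0.30. These are 6.74% and 27.0% of the KRAB members, against 30.0% and 29.3% of all genes, so the light share is near the background. The KRAB calls became 3 heavy and 8 light by DESeq2's Wald test, 2 and 34 under library totals, and 2 and 5 without the genotype term. Of 71 members without the pattern, 19 were called toward heavy and 20 toward light, with a median of 0.00. Among members with 50 or more counts in each library the gap between the medians was smaller, at -0.17 for 57 KRAB members and -0.11 for 65 others, ZNF720 among them, while the calls were 4 heavy and 18 light against 16 heavy and 22 light. The median coding sequence was 1689 nucleotides for KRAB members tested and 1635 for those without, but the lengths were spread differently. Up to 1000 nucleotides had 2 KRAB members and 13 without the pattern, and above 3000 nucleotides there were again 2 and 13. Of the 13 without KRAB above 3000 nucleotides, 8 were called toward heavy. In the class from 1000 to 1500 nucleotides the heavy shares were close, with 3 of 31 KRAB members (9.68%) and 1 of 13 without (7.69%). Light calls there were 12 (38.7%) with KRAB and 6 (46.2%) without. In the class from 1500 to 2000 nucleotides, 1 of 34 KRAB members was called toward heavy and 7 toward light, and 6 and 4 of 21 members without KRAB. Of the genes outside the ZNF series in this class, 43.45% were called heavy and 14.25% light. By finger number, members with 12 to 15 fingers had 1 heavy and 10 light calls among 34, or 2.94% and 29.4%. Those with 16 or more had 5 heavy and 1 light among 21, or 23.8% and 4.76%. Against 30.0% heavy and 29.3% light of all genes, the light share for 12 to 15 fingers is at the background. Median coding lengths were 2565 nucleotides for 16 or more fingers and 1840 for 12 to 15.

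Genes through which KRAB proteins act had more heavy than light calls. Of 21 co-repressor genes listed for comparison, 14 were called toward heavy polysomes and 3 toward light, with a median log2 ratio of 1.23 and a median coding length of 2505 nucleotides. Calls toward heavy were 30.0% of all genes, and 49.0% of the genes outside the ZNF series with 2000 to 3000 coding nucleotides. TRIM28, the KRAB-binding scaffold, had a log2 heavy/light ratio of 2.22 ± 0.33 (SE; edgeR adjusted p = 5.72e-10). SETDB1, the histone methyltransferase it recruits, had 1.23 (SE 0.26, edgeR adjusted p = 1.40e-05).

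ZNF622 was the most heavy member. Its yeast counterpart Rei1 acts in the last, cytoplasmic steps of large ribosomal subunit maturation. Counts were 938 and 968 in the labelled knockout and wild type heavy libraries, and 242 and 251 in the light ones, so both heavy libraries were far above both light ones. The log2 ratio of heavy to light was 2.07 (SE 0.27, edgeR adjusted p = 6.50e-13). With 1431 coding nucleotides it lay well above the median of its length class.

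ZNF574 followed with a log2 heavy/light ratio of 1.71 ± 0.27 (SE; edgeR adjusted p = 2.12e-09). It had 787 and 1095 counts in the labelled knockout and wild type heavy libraries, and 318 and 299 in the light ones. ZNF746, also known as PARIS, a KRAB repressor that parkin marks for degradation, came next with 1.41 (SE 0.26, edgeR adjusted p = 5.41e-07). Counts of ZNF746 were 593 and 631 in the heavy libraries of labelled knockout and wild type, and 264 and 237 in the light ones. ZNF746 and ZNF777, which lie in the same cluster on chromosome 7, were the only KRAB members among the 12 with the highest ratios. The others were ZNF629 (log2 ratio 1.28), ZNF503 (1.25), ZNF697 (1.19), ZNF687 (1.14), ZNF609 (1.08), ZNF703 (1.01), ZNF784 (1.003) and ZNF827 (0.99), and ZNF777 had 1.23. All 12 passed edgeR's test, and in each both heavy libraries had more counts than both light ones. Without the genotype term the calls of ZNF697, ZNF703 and ZNF784 were lost.

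Among the 12 with the lowest ratios, ZNF720 was first with a log2 heavy/light ratio of -1.51 ± 0.28 (SE; edgeR adjusted p = 5.08e-07). It had 68 and 112 counts in the labelled knockout and wild type heavy libraries, and 178 and 408 in the light ones. Its symbol was not matched to the annotation, so its length is not given. ZNF706, which encodes a very small protein from 228 coding nucleotides, had a log2 heavy/light ratio of -1.43 ± 0.27 (SE; edgeR adjusted p = 6.87e-07). Counts of ZNF706 were 445 and 467 in the heavy libraries of labelled knockout and wild type, and 1107 and 1599 in the light ones.

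ZNF614, a KRAB gene of 10 fingers with 1755 coding nucleotides, was as far toward light as the small ones. It had 70 and 56 counts in the labelled knockout and wild type heavy libraries, against 166 and 195 in the light ones, a log2 heavy/light ratio of -1.40 ± 0.30 (SE; edgeR adjusted p = 1.21e-05). ZNF639 had 659 and 585 counts in heavy and 1429 and 1848 in light libraries of labelled knockout and wild type, a log2 heavy/light ratio of -1.27 ± 0.27 (SE; edgeR adjusted p = 1.34e-05). The remaining members of the 12 were ZNF576 (-1.42), ZNF593 (-1.22), ZNF655 (-1.21), ZNF511 (-1.18), ZNF670 (-1.17), ZNF652 (-1.13), ZNF688 (-1.05) and ZNF771 (-1.01), all past edgeR's test. The call of ZNF652 was lost without the genotype term. In none of the 12 did a heavy library have as many counts as a light library of the same genotype. Exons of ZNF593 are overlapped in full by the antisense gene ZNF593OS, and those of ZNF511 over 46.8% by the readthrough gene ZNF511-PRAP1, and reads there cannot be assigned to a gene of the pair with certainty.

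**Figure D2:**
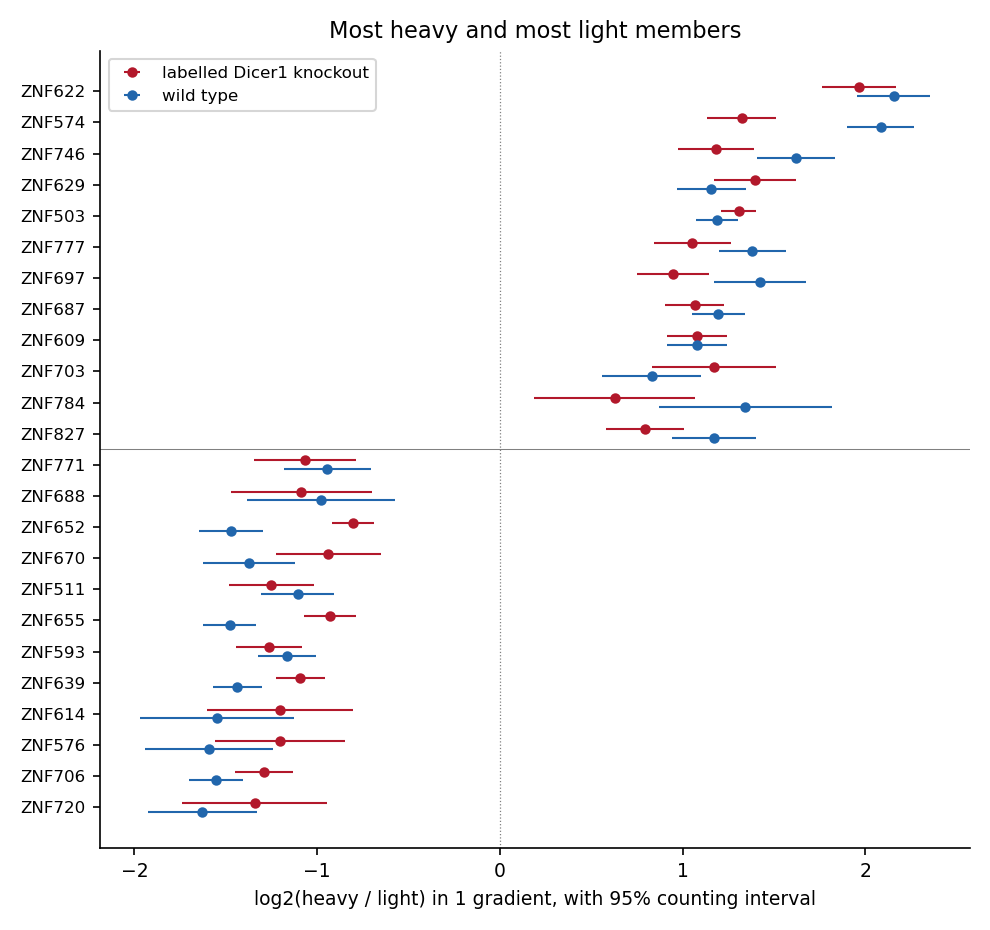
The log2 ratio of heavy to light polysomes in each gradient is drawn for the 12 members with the highest and the 12 with the lowest fitted ratio, with 95% counting intervals; red is the labelled knockout and blue the wild type. Every point of the upper 12 lies above 0 and every point of the lower 12 below it, and ZNF622 lies at 1.97 in the labelled knockout and 2.16 in wild type.

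Members that act on ribosomes fell on both sides. ZNF622 was called toward heavy and ZNF593 toward light polysomes, as given above. ZNF598, the ubiquitin ligase that marks ribosomes that have collided, had 738 and 792 counts in the labelled knockout and wild type heavy libraries and 451 and 725 in the light ones. Its log2 ratio of 0.54 did not pass (SE 0.26, edgeR adjusted p = 0.0604).

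ZNF687, ZNF592 and ZNF532 encode chromatin proteins that bind ZMYND8, and their mRNAs did not lie together. ZNF687 had 924 and 1148 counts in the labelled knockout and wild type heavy libraries and 447 and 582 in the light ones, and was called toward heavy. ZNF592 had 603 and 642 in heavy and 360 and 563 in light, with a log2 heavy/light ratio of 0.59 ± 0.26 (SE; edgeR adjusted p = 0.0382). This call was lost in 4 of the 7 other settings, as given under the processing. ZNF532 had 110 and 69 counts in heavy and 123 and 162 in light, a log2 ratio of -0.57 that was not called (edgeR adjusted p = 0.0817). Its coding sequence of 3903 nucleotides is longer than that of ZNF687, at 3711.

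The NET family members ZNF503 and ZNF703, which lack a canonical run of fingers, were both called toward heavy. ZNF503 had 2974 and 1832 counts in the labelled knockout and wild type heavy libraries, against 1219 and 935 in the light ones. ZNF703, an oncogene of luminal breast cancer, had 220 and 272 in heavy and 98 and 177 in light. ZNF638, a large nuclear RNA-binding protein, had 1845 and 1885 counts in heavy and 1202 and 1177 in light, a log2 heavy/light ratio of 0.77 ± 0.27 (SE; edgeR adjusted p = 0.00938). With 5934 nucleotides it has the longest coding sequence of the members. ZNF830, linked to the spliceosome, had 514 and 683 in heavy and 569 and 448 in light, and was not called (log2 ratio 0.35, edgeR adjusted p = 0.231). ZNF516 was called toward heavy with 0.73 (SE 0.26, edgeR adjusted p = 0.00992). ZNF521 and ZNF536, listed with it, had at most 3 and 0 counts in any library. The calls of ZNF638 and ZNF516 were both lost under library totals (edgeR adjusted p = 0.0701 and 0.109) and without the genotype term (0.0508 and 0.0796). ZNF645, a ubiquitin ligase known from testis, was at 0 in each library.

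Between the genotypes stands a single library against another in heavy and in light polysomes, so there is neither a replicate check nor a test. Ratios are of scaled CPM with a prior count of 2, among members that reach 50 counts in at least 1 library of both pairs. Few members differed by 2-fold. Of 133 members compared, 1 was 2-fold or more higher in the labelled knockout in both fractions, against 1.39% of 11363 genes, and 1 was lower, against 1.43%. In heavy polysomes alone 4 members were 2-fold higher (3.64% of all genes) and 1 lower (2.81%). In light polysomes alone 3 were higher (4.16% of all genes) and 1 lower (2.90%). These shares lie at or below the background. The members' median log2 genotype ratio (labelled knockout over wild type) was 0.04 in heavy and -0.13 in light polysomes, against -0.03 and 0.01 over all genes. In bulk RNA, less RNA per cell and fewer cells with an mRNA cannot be told apart.

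ZNF701, a KRAB gene on chromosome 19, was the member higher in both fractions. It had 135 and 42 counts in the labelled knockout and wild type heavy libraries and 116 and 43 in the light ones. The folds were 3.36 (exact 95% counting interval 2.36 to 4.87) in heavy and 3.23 (2.26 to 4.70) in light, for labelled knockout over wild type. An unnamed gene on the opposite strand covers 12.01% of its exons. ZNF596 was the member lower in both fractions, with 49 and 133 counts in heavy and 71 and 198 in light for labelled knockout and wild type. Wild type was 2.60-fold (1.86 to 3.68) and 2.33-fold (1.77 to 3.10) above the labelled knockout.

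The next members by the smaller of their ratios were higher in the labelled knockout by less than 2-fold in at least 1 fraction. ZNF652, a repressor that partners CBFA2T3, had 946 and 339 counts in heavy and 1675 and 1097 in light for labelled knockout and wild type, log2 ratios of 1.54 (heavy) and 0.87 (light). ZNF503 had log2 ratios of 0.76 and 0.64, ZNF816 0.94 and 0.73, ZNF618 0.96 and 0.73, and ZNF704 1.27 and 0.60 in heavy and light. ZNF805, ZNF525, ZNF697 and ZNF845 had log2 ratios of 0.58 to 1.10 across both fractions. On the lower side stood ZNF620 with log2 ratios of -0.98 in heavy and -0.90 in light, ZNF581 with -0.76 and -0.82, ZNF720 with -0.64 and -0.93, and ZNF768 with -0.57 and -0.999. ZNF711, a partner of the demethylase PHF8 whose loss causes X-linked intellectual disability, had -0.56 and -0.46. ZNF641, ZNF646, ZNF787 and ZNF707 had log2 ratios of -0.34 to -0.97.

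**Figure D3:**
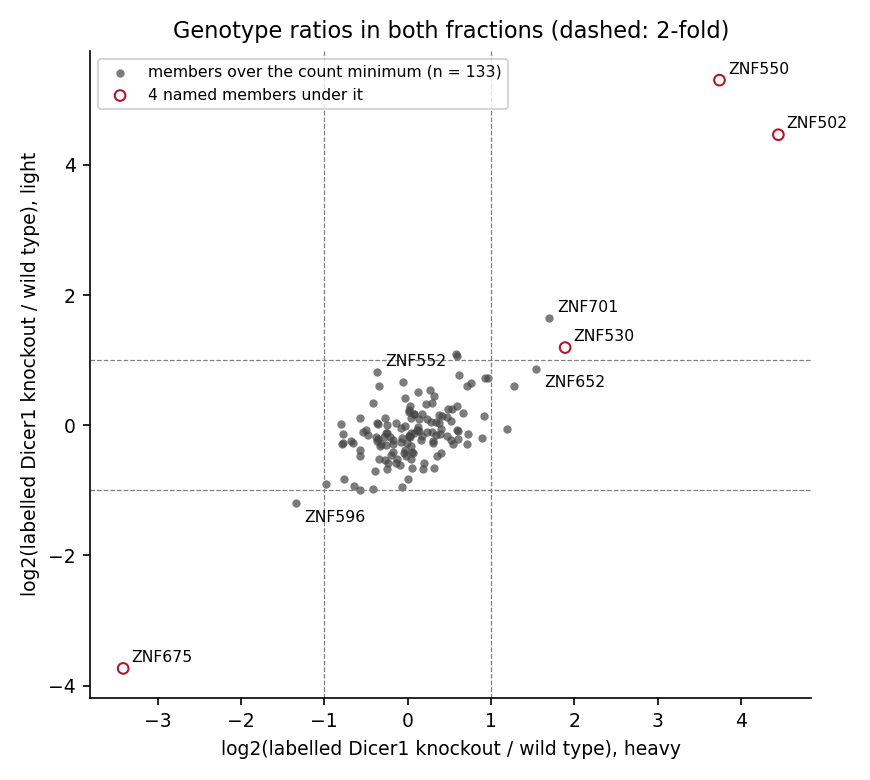
The log2 genotype ratio, labelled Dicer1 knockout over wild type, is plotted for heavy (horizontal) against light polysomes (vertical); grey points are the 133 members over the count minimum, and red circles are 4 named members under it. Of the grey points, ZNF701 lies past the dashed 2-fold lines on the upper right and ZNF596 on the lower left, and the circles of ZNF550, ZNF502 and ZNF675 lie far outside the cloud.

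The widest genotype differences lay under the count minimum, in members with reads in 1 genotype and next to none in the other. They were picked out after their values were seen, as members with 20 or more counts in both libraries of a genotype and 3 or fewer in both of the other. ZNF502 and ZNF550 were seen in the labelled knockout and ZNF675 in wild type. Over all 26364 genes the same criterion found 8 genes for the labelled knockout (0.0303%) and 10 for wild type (0.0379%), so that 2 of the 8 and 1 of the 10 were members.

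ZNF502, a gene of 14 fingers on chromosome 3 (44712643 to 44723831, plus strand, GRCh38), had 39 and 0 counts in the labelled knockout and wild type heavy libraries and 40 and 0 in the light ones. Set against a floor of 3 counts in wild type, ZNF502 in the labelled knockout gave ratios of 13.6 in heavy and 15.98 in light polysomes. Ratios to the floor take the labelled knockout count as exact, so they are not lower limits. ZNF550, a KRAB gene on chromosome 19 (57535257 to 57559863, minus strand, GRCh38), had 36 and 1 counts in heavy and 73 and 0 in light. Its ratio of labelled knockout to wild type in heavy was 37.6 with a wide exact 95% counting interval of 6.33 to 1527. In light the ratio to the same floor was 29.2. ZNF675, a KRAB gene known as an inhibitor of TRAF6 signalling, lies on chromosome 19 (23525631 to 23687220, minus strand, GRCh38). It had 1 and 30 counts in heavy and 1 and 44 in light for labelled knockout and wild type. Wild type exceeded the labelled knockout by 28.7 (4.77 to 1171) in heavy and 36.7 (6.25 to 1483) in light. The fraction made no difference to the direction in any of the 3 genes, and ZNF502 shares no 50-base window with another gene, ZNF550 1.68% and ZNF675 3.89%.

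**Figure D4:**
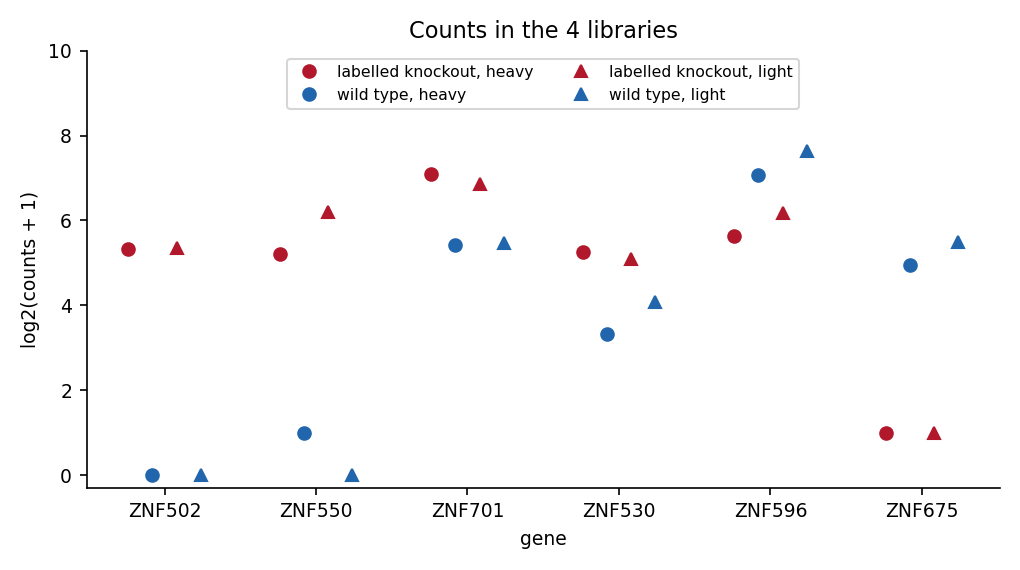
Counts in the 4 libraries are drawn as log2(counts + 1) for 6 members, with the heavy libraries as circles, the light libraries as triangles, the labelled knockout in red and wild type in blue. ZNF502 and ZNF550 have 36 to 73 counts in the labelled knockout and 0 or 1 in wild type, ZNF675 has 1 in the labelled knockout against 30 and 44 in wild type, and ZNF530 and ZNF701 are higher and ZNF596 lower in the labelled knockout in both fractions.

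The promoters of these 3 genes are shown because their mRNAs were near 0 in 1 genotype. They run from 250 bases before to 50 bases after the start in RefSeq (GRCh38.p14), in the direction of transcription, with each CG dinucleotide, the target of DNA methylation in mammals, in capitals. The search for CG reads the same on both strands. ZNF502 lies at chr3:44712410-44712709 on the plus strand, ZNF550 at chr19:57559814-57560113 on the minus strand and ZNF675 at chr19:23687163-23687462 on the minus strand.
ZNF502: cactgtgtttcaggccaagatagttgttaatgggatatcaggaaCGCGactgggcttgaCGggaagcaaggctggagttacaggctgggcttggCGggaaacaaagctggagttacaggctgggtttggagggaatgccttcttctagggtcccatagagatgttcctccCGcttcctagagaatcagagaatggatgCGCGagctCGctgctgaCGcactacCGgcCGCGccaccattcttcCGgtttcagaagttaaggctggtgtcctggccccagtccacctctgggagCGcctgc
ZNF550: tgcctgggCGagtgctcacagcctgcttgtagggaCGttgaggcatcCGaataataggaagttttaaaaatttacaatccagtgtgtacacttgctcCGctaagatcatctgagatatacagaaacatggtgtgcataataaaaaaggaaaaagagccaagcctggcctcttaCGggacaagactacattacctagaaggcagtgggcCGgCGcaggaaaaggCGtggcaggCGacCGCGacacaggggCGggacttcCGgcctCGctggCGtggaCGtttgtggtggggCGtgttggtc
ZNF675: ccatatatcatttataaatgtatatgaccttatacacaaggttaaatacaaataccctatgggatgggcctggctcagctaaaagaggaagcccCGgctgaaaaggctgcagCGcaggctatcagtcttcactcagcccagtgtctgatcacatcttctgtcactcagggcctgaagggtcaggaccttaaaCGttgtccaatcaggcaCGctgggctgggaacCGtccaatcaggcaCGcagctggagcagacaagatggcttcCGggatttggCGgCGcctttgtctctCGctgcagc

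The ZNF502 window holds 14 CG dinucleotides, that of ZNF550 17 and that of ZNF675 10. Of 35116 RefSeq promoter windows, 50.3% hold 14 or more, 46.0% hold 17 or more and 56.4% hold 10 or more. The median over the 197 members with a window was 22, so the 3 genes lie below their own family. Methylation was not measured, and the counts of CG describe the windows only.

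Neighbouring members did not all follow these genes. Within runs of members no more than 500000 bases apart, the run on chromosome 19 from 57240632 to 58431736 held ZNF550 and 15 other tested members. Of these 16, 9 were higher and 3 lower in the labelled knockout in both fractions, with ZNF550 itself among the 9. Of the 161 tested members 26.7% were higher and 37.9% lower in both, and of all genes tested 31.0% and 32.4%. Such counts go by the sign of the ratio alone, with no minimum size. ZNF530, the next tested member beside ZNF550, had 37 and 9 counts in the labelled knockout and wild type heavy libraries and 33 and 16 in the light ones. ZNF551, the following one, had 96 and 102 in heavy and 72 and 120 in light. The run around ZNF701 on chromosome 19, from 51804816 to 53496255, had 6 of 17 members higher and 7 lower. ZNF816, ZNF845 and ZNF525 there were among the 10 highest members, and ZNF808, whose gene overlaps ZNF701, had 28 and 30 counts in heavy and 44 and 69 in light.

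Lower runs were found too. On chromosome 16, from 30407414 to 31443160, 7 of 9 tested members were lower in the labelled knockout in both fractions and 2 higher, with median log2 ratios of -0.37 in heavy and -0.31 in light. On chromosome 19 from 55476617 to 56671783, 6 of 8 were lower and 0 higher, among them ZNF579, ZNF581 and ZNF787. By the same signs, 32.4% of all genes tested were lower and 31.0% higher in both fractions. These runs were looked at after the values were known, and genes of a run are not independent.

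The shift is the log2 heavy to light ratio in the labelled knockout minus that in wild type. It was small for most members, and its median lay on the heavy side. Of 122 members with 50 or more counts in each library, 1 moved 2-fold or more toward heavy in the labelled knockout, against 0.905% of 10834 genes, and 1 toward light, against 2.37%. The median log2 shift was 0.20 over the members and -0.05 over all genes, and 63.1% of the members and 46.5% of all genes were above 0. Other ZNF genes had a median of 0.10 over 141. The members' median lay 0.24 to 0.25 above that of all genes under each scaling and prior count run, while the median of all genes itself ran from -0.12 to 0.09. Both fractions contributed. Among the 161 tested members, 26.7% were higher in heavy and lower in light polysomes of the labelled knockout, and 8.70% the other way round, against 17.5% and 19.1% of all genes. With 1 library per group this difference has no test.

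Ratios spread less in the labelled knockout than in wild type. The SD of the log2 heavy to light ratio over the 122 members was 0.67 in the labelled knockout and 0.86 in wild type, and 0.90 and 1.17 over all 10834 genes. The gradients put 101 of the 122 members on the same side, 48 heavy and 53 light in both, which is 82.8% against 88.5% of all genes. Ribosomal RNA differed between these libraries too, as given above, and its part was not tested.

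ZNF567, a KRAB gene of 14 fingers, had the largest shift toward heavy. Its counts were 117 and 65 in the labelled knockout and wild type heavy libraries, and 145 and 200 in the light ones. The log2 heavy to light ratio was -0.28 in the labelled knockout and -1.38 in wild type, a shift of 1.09 (95% counting interval 0.56 to 1.62). ZNF775 followed with 0.98 (0.51 to 1.44), then ZNF548 with 0.88, ZNF558 with 0.86, ZNF532 with 0.85 and ZNF664 with 0.84. ZNF664 had the highest mean level of the members, 117.1 CPM, and so the narrowest interval of these, 0.71 to 0.97. It had 1696 and 1336 counts in heavy and 2378 and 3847 in light for labelled knockout and wild type.

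ZNF552, a KRAB gene of 6 fingers, had the largest shift toward light. Its counts were 122 and 165 in the labelled knockout and wild type heavy libraries, and 106 and 71 in the light ones. The log2 heavy to light ratio was 0.22 in the labelled knockout and 1.41 in wild type, a shift of -1.19 (95% counting interval -1.73 to -0.64). Of its 50-base windows, 18.4% occur in another gene, so its counts are uncertain. ZNF830 followed with -0.95 (-1.19 to -0.71), ZNF555 with -0.81, ZNF574 with -0.76, ZNF784 with -0.72 and ZNF554 with -0.68.

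**Figure D5:**
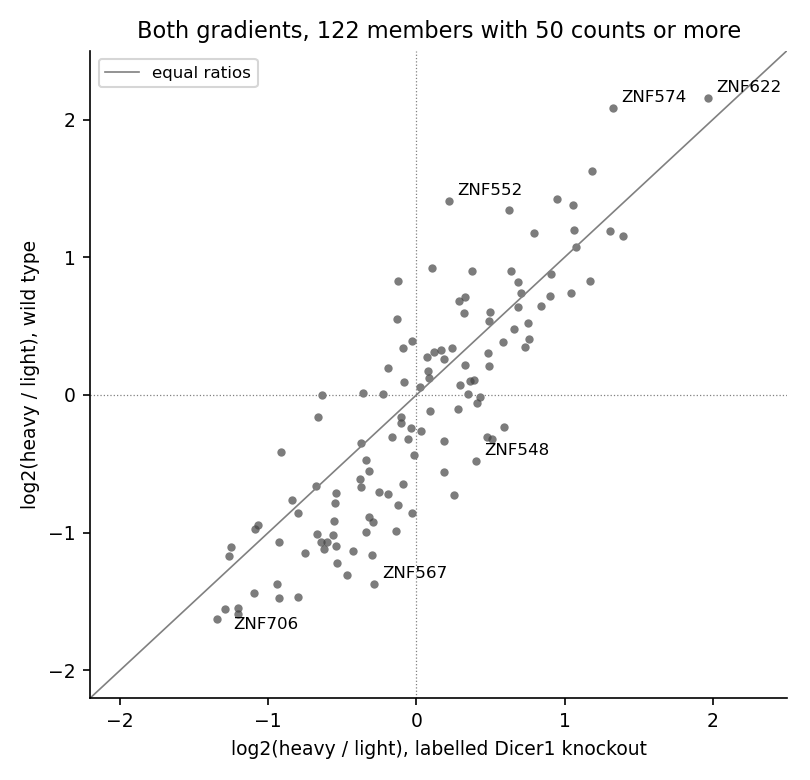
The log2 ratio of heavy to light polysomes in the labelled Dicer1 knockout (horizontal) is plotted against that in wild type (vertical) for the 122 members with 50 or more counts in each library; the line marks equal ratios. Points are spread less along the horizontal axis (SD 0.67) than along the vertical one (SD 0.86), with ZNF567 farthest below the line and ZNF552 farthest above it.

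Seed matches of microRNAs in coding sequence are a feature of this gene family. The families miR-181 and miR-23 are shown because their seed matches fall in the finger repeats. The mature sequences from RefSeq (GRCh38.p14) follow with the seed, bases 2 to 8, in capitals. All members of a family share the seed.
hsa-miR-181a-5p: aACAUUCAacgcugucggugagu
hsa-miR-181b-5p: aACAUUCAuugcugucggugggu
hsa-miR-181c-5p: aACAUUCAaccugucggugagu
hsa-miR-181d-5p: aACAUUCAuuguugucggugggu
hsa-miR-23a-3p: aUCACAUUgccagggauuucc
hsa-miR-23b-3p: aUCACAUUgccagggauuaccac

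The coding sequence was searched on the mRNA strand for TGAATGT, the match to the miR-181 seed, and for AATGTGA, the match to the miR-23 seed. The motifs can overlap, since both hold AATGT. At least 1 miR-181 match was found in 59.1% of 237 members, against 11.6% of 18566 genes outside the ZNF series, and 5 or more in 29.5% against 0.194%. For miR-23 the shares with at least 1 match were 50.6% and 13.7%, and with 5 or more 15.6% and 0.0916%. Of all members, ZNF658 held the most miR-181 matches, 28, and ZNF729 the most miR-23 matches, 33.

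Stretches of 168 coding bases from 3 measured members, chosen as rich in matches, are given in the sense of the mRNA with the matches in capitals. They come from GENCODE 44, with GRCh38 positions. ZNF594 has 17 miR-181 matches, and coding bases 1312 to 1479 (chr17:5182778-5182945, minus strand) hold 3. ZNF551 has 11 miR-181 matches, and coding bases 1600 to 1767 (chr19:57687875-57688042, plus strand) hold 4. ZNF714 has 16 miR-23 matches, and coding bases 445 to 612 (chr19:21117109-21117276, plus strand) hold 4.
ZNF594: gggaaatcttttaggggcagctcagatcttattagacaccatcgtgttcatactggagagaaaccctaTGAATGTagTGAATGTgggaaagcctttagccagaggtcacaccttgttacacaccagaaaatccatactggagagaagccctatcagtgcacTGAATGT
ZNF551: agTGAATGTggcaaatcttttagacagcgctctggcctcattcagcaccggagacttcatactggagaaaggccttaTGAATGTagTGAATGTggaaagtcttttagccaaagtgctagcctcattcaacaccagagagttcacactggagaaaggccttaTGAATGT
ZNF714: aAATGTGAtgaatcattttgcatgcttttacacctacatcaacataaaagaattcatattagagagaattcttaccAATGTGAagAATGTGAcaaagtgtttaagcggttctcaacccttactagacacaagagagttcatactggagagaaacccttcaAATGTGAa

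In these stretches the matches lie where a finger begins, just after the linker between fingers. The 25 compared members with 5 or more miR-181 matches had a median log2 genotype ratio of 0.30 in the heavy and -0.16 in the light fraction. The 64 members with no match had 0.01 in heavy and -0.12 in light. For miR-23, the 15 members with 5 or more matches had 0.35 and -0.15, and the 80 with none had 0.00 and -0.14. The heavy medians did not follow the number of matches step by step, with 0.03 for members with 1 miR-181 match and 0.02 for those with 2 to 4. Over all genes with 5 or more matches the heavy median was 0.19 for miR-181 and 0.03 for miR-23. These sets include the members, 25 of 78 genes for miR-181 and 15 of 39 for miR-23, and other ZNF genes. Across the 160 tested members, Spearman's correlation of the number of miR-181 matches with the log2 ratio was 0.06 in heavy and 0.02 in light, and for miR-23 it was 0.12 and 0.04. The classes and correlations describe these 4 libraries. The microRNAs themselves were not measured.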

How the data were processed

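In the deposited table each of the 4 libraries has a column of whole-number read counts, by gene symbol. Per the submitters' processing notes CASAVA, STAR, HTSeq and hg19 were used; their versions, the gene models and the strandedness used in counting are not stated in the labels. Members and lists were chosen with earlier results of these data known.

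Heavy against light was tested on all genes with edgeR 4.0.16 in R 4.3.3 (filterByExpr, TMM scaling, quasi-likelihood test, genotype as a covariate, Benjamini-Hochberg adjustment). The fit left 1 residual degree of freedom, and edgeR drew each gene's spread toward that of all genes. The 2 gradients are also the 2 genotypes, so their disagreement may be technical or come with the genotype. A gene's SE therefore says little about how far its own 2 gradients differ. It was 0.26 for ZNF609, with a log2 ratio of 1.08 in both gradients. For ZNF552 it was 0.29, with 0.22 in the labelled knockout and 1.41 in wild type. On data simulated for this comparison (13537 genes), the test recovered 57 of 100 genes changed 2-fold and 93 of 94 changed 4-fold. The simulation gave all genes the same spread beyond counting error, changed few genes and held no genotype difference. Its recovery is therefore not the power of the test in these libraries.

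Genotype ratios and shifts use TMM-scaled CPM with a prior count of 2 and 95% counting intervals. Of 242 member symbols, 241 matched GENCODE 44 (GRCh38), 237 directly and the others through RefSeq synonyms. KRAB and C2H2 patterns were searched in translated GENCODE coding sequences, in place of RefSeq proteins. Of 160 tested members with a value, 31 share over 10% of their 50-base windows with another gene, and their counts are uncertain.

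The genes named were the 12 highest and lowest heavy to light ratios, the 10 highest and lowest genotype ratios by the smaller of both fractions, the 6 largest and smallest shifts, the 10 highest mean CPM and the role lists. Others were picked after their values were seen. DESeq2 1.42.0 and other scalings, filters and prior counts were tried.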

Additional observations from a re-analysis of the deposited data

Results flagged for a closer look

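Among the 122 members with 50 or more counts in each library, 8 had a ratio that changed sign, with both counting intervals off 0. The share of all genes that meet this criterion is not given, so whether 8 is many or few is not known. In ZNF548 and ZNF696 it was the heavy to light ratio that changed sign between genotypes, and in the others the genotype ratio that changed sign between fractions. With 1 library per group none of these differences was tested.

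ZNF548 and ZNF696 lay toward heavy polysomes in the labelled knockout and toward light in wild type. The log2 heavy to light ratio of ZNF548 was 0.40 in the labelled knockout and -0.48 in wild type, a difference of 0.882. ZNF696 had 0.51 in the labelled knockout and -0.32 in wild type, a difference of 0.833.

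In ZNF552, ZNF574 and ZNF830 the labelled knockout was lower than wild type in heavy and higher in light polysomes. The heavy minus light differences of the log2 genotype ratio were -1.19 for ZNF552, -0.76 for ZNF574 and -0.949 for ZNF830. ZNF639, ZNF655 and ZNF664 were higher in heavy and lower in light, with differences of 0.344, 0.548 and 0.84.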

How the results depend on the processing

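The main fit paired the heavy and light libraries of each gradient through the genotype term, and the setting without that term was the unpaired one. No further pairing was possible with 1 library per group. The members' calls, 25 heavy and 45 light, became 14 heavy and 60 light under library totals, and 10 heavy and 15 light without the genotype term. By DESeq2's Wald test they were 20 heavy and 21 light, so the excess of light calls was almost gone there. The members' median log2 heavy to light ratio of -0.14 became -0.38 under library totals, and -0.31 to -0.06 when a gradient was left out, a value with no test. The other alternatives kept both within 1.5 times or within the spread between gradients.

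In the genotype comparison, halving the count minimum gave 4 members higher and 2 lower in both fractions, adding ZNF502, ZNF530, ZNF550 and ZNF675 to the 2 called before. Of shifts toward heavy, 4 were counted under library totals, 2 with the halved minimum and 0 with the doubled one. Of shifts toward light, 2 were counted under DESeq2 size factors, 0 with the doubled minimum and 0 without genes that share over 10% of their 50-base windows, which leaves out ZNF552.

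Of the named members, ZNF554, ZNF701 and ZNF787 changed sign under library totals (log2 -0.0099, -0.0055 and -0.020), and ZNF548 and ZNF707 under DESeq2's Wald test (0.021 and 0.030). None of these was called in either setting. Calls were lost for 14 named members without the genotype term, 6 by DESeq2's Wald test, 6 under library totals and 3 with a minimum of 50 counts in each library. Calls were gained for 4 under library totals, 2 with that minimum and 1 with DESeq2 size factors. Beyond these constructions the cause was not tested. Depth limits the comparison of genotypes to 133 of 242 members.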
